A study of Mus musculus with 5375 samples.

Results

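Myc and 8 further genes of the Max network (Mycn, Max, Mxd1, Mxd3, Mxd4, Mxi1, Mnt and Mlx) were followed in tumor cells (TCs) and endothelial cells (ECs) of the mouse lung, 9 genes among the 35299 of the TC tables and the 35308 of the EC tables. The genes were taken by name as the core of a transcription factor family, and Myc was chosen from values already seen: its difference between extravascular and intravascular TCs and its levels in ECs were known when the list was drawn up. Comparisons of Myc that use the day 1.5 TC libraries or the ECs are therefore given as a description, without a test. The other members and the gene lists were also drawn up with earlier results of these data known, so that their tests are not independent of these data. Female BALB/c mice, 8–12 weeks old, received 4T1-GFP cells, a metastatic mouse mammary cancer line of the same strain that carries green fluorescent protein, through the tail vein. Before injection they were loaded with CellTrace, of which each daughter cell inherits a part. On day 1.5, TCs that an antibody to H-2Kd in the blood had reached were sorted as intravascular and the others as extravascular, from the same 4 mice. On day 3.5, TCs that retained the dye were sorted as latent (4 mice) and those with diluted dye as proliferative. The study describes matched latent and proliferative fractions from 4 biological replicates. The deposited annotation names 1 mouse for all proliferative cells, which entered as 1 pool, and cells left over from the injected culture formed another. ECs (CD45-, PDPN-, LYVE-, TER119-, CD31+) came from uninjected mice (day 0, n = 4) and from injected mice on day 1.5 (n = 3) and day 3.5 (n = 3). All TC groups share the 4T1-GFP line and the dye, and the gates separate positions and division histories only as far as staining does; the study's own text allows for incomplete purity.

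Myc, Mycn and Max belong to the basic helix-loop-helix zipper proteins, which bind the E-box CACGTG in pairs. Myc needs Max as its partner and raises transcription of genes for ribosome production, nucleotide synthesis and division. Mxd1, Mxd3, Mxd4, Mxi1 and Mnt pair with Max at the same motif and recruit Sin3 corepressors and histone deacetylases; Mxd proteins are best known from cells that leave the cycle, apart from Mxd3, which is known from cells in S phase. Mlx is a Max-like partner of the nutrient sensors Mlxip and Mlxipl and also of Mxd1, Mxd4 and Mnt.

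Since these factors bind an E-box, the 250 bases before each RefSeq start of the members were searched for CACGTG, which reads the same on both strands. Of the 9 members 8 had such upstream windows (10 in all). Myc had none in the RefSeq set used, so its upstream bases were not searched. The motif was present in those of Mxd4, Mnt and Mlx, and in 6.86% of the 27025 genes with a window. The 60 bases around it are shown for these 3 genes, in the gene's direction, with the E-box in capitals (RefSeq, GRCm38.p6). In Mxd4 (chr5:34187897-34187956, minus strand) it began 219 bases before the start, in Mnt (chr11:74830774-74830833, plus strand) 123 bases and in Mlx (chr11:101087223-101087282, plus strand) 40 bases before it.
Mxd4: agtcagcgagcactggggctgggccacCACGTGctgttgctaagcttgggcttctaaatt
Mnt: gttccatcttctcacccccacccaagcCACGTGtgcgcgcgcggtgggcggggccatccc
Mlx: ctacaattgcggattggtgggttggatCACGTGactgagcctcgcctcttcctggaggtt
A match is a description of the letters and not a bound site. Binding was not measured here.

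Levels are reads per 1000000 of the library's summed reads (CPM), where a library is the sum of the kept cells of 1 mouse and gate. EC libraries held 75.6 to 129.5 M reads and TC libraries of single mice 31.9 to 49.9 M, the proliferative pool 163.5 M and the culture pool 92.1 M. TC identity held in the marker genes. The 6 epithelial markers summed to between 2663 and 6270 CPM in TCs and between 3.33 and 17.5 CPM in ECs, and the 7 endothelial markers to between 8740 and 14977 CPM in ECs and between 19.7 and 51.8 CPM in TCs. Every TC gate was read on lanes that no other gate used, so gate and lane cannot be told apart in any comparison of TCs.

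Myc (chr15:61985391-61990374, plus strand, GRCm38) had the highest group mean per kilobase of exon among the members in each TC gate and the culture, and was close to undetected in ECs. In single libraries Mlx lay above it in intravascular replicates 2 and 3 and extravascular replicate 2. It stood at 162 CPM in the culture pool. In the lung on day 1.5 it was read at 32.7, 26.6, 23.5 and 31.0 CPM in the 4 intravascular libraries and, in the same 4 mice, at 56.9, 43.9, 52.0 and 49.3 CPM in the extravascular ones. The extravascular value was the higher one in each mouse, and the groups did not overlap.

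On day 3.5 latent TCs held 85.0, 109, 82.0 and 103 CPM of Myc, above every day 1.5 library and below the culture. The proliferative pool held 110 CPM, which lies just above the highest latent library. From high to low the order of group means was thus culture, proliferative, latent, extravascular and intravascular TCs, and then ECs. Single cells weighed on these levels. The cell with most Myc reads held 23.0% of them in the pool and 16.2% to 31.5% in latent libraries. In extravascular libraries it held 10.6% to 25.2% and in intravascular ones 16.6% to 51.9%. The order of the pool and the latent libraries is therefore not firm.

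In ECs Myc was read at 0, 0.303, 0.0122 and 0 CPM on day 0, at 4.99, 0.0935 and 0 CPM on day 1.5, and at 0.108, 2.20 and 5.76 CPM on day 3.5. The 3 days overlapped. The libraries without a Myc read on day 0 allow a level of up to 0.0397 CPM in replicate 1 at 3 reads, a limit that covers counting error only. Single cells carried much of these reads: where Myc was read in ECs, the cell with most reads held between 31.1% and 100% of them. The 0.303 CPM of day 0 replicate 2 were 29 reads, 93.1% of them in 1 cell.

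**Figure D1:**
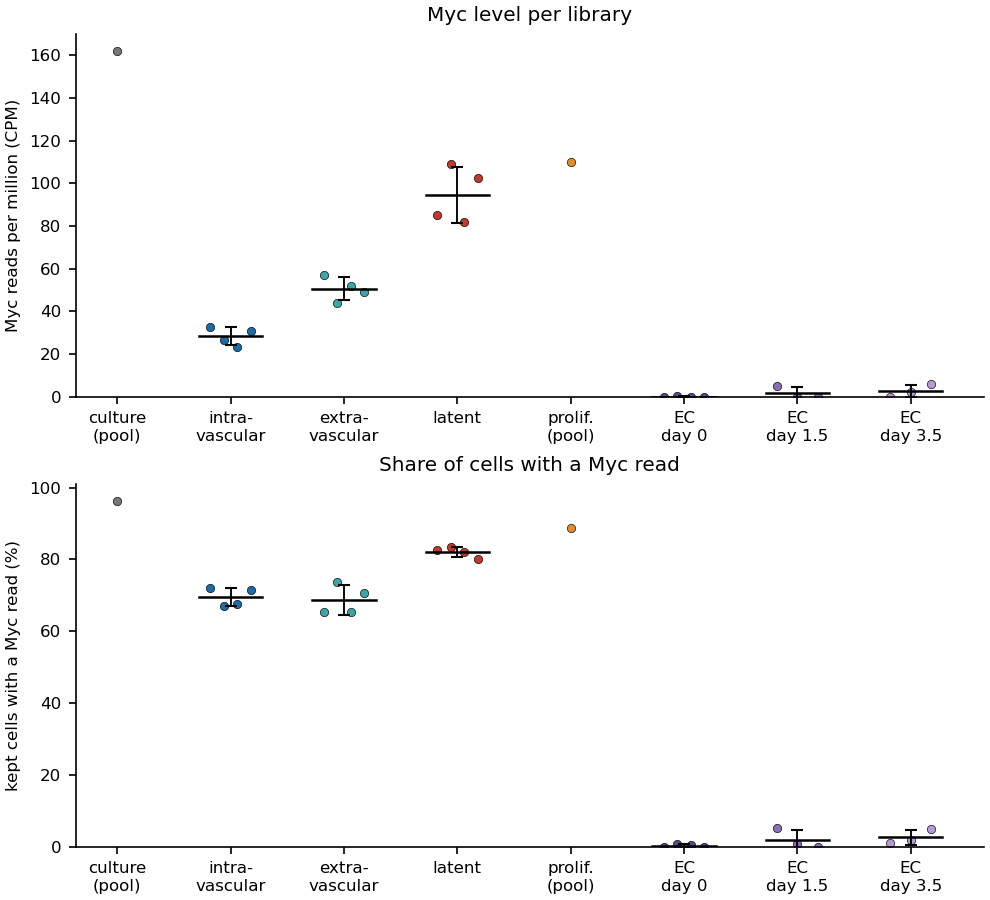
Myc per library. The upper plot gives the level in CPM and the lower plot the share of kept cells with at least 1 Myc read (%), with bars for mean ± s.d. where a group has several mice. Intravascular libraries sat between 23.5 and 32.7 CPM, extravascular between 43.9 and 56.9 CPM and latent between 82.0 and 109 CPM, while the shares of intravascular and extravascular cells overlapped.

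The share of cells with a Myc read changed its order with depth. It was 96.2% in culture, 88.6% in the proliferative pool, and between 80.0% and 83.5% in latent libraries. The pool's cells were read deeper (median 718192 reads, against 459916 to 580355 in latent libraries), and after thinning to 100000 reads per cell its share was 68.8%, below the 69.2% to 75.6% of the latent libraries. Intravascular libraries held between 67.1% and 72.0% of such cells and extravascular ones between 65.2% and 73.8%, so these gates overlapped in the share although not in the level. The mean share differed by -0.73 percentage points (extravascular minus intravascular) and by -0.11 points after the same thinning. Cells with at least 10 Myc reads made up 20.0% to 24.4% of intravascular and 33.3% to 40.6% of extravascular libraries. Such cells were more frequent in each extravascular library than in any intravascular one. In ECs, which serve here as the cell type of low Myc, the share was between 0% and 5.11%.

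Comparing extravascular with intravascular TCs asks what differs in TCs that have left the vessel. The log2 fold change of Myc was 0.75 ± 0.14 (SE, n = 4 mice per gate), from 28.4 ± 4.17 to 50.5 ± 5.41 CPM (SD), and with the mouse as a block it was 0.76. Of the 7 other members tested 0 were called at an adjusted p of 0.05 by edgeR's quasi-likelihood test, where 0.951% of all 19249 genes were called. Before adjustment 1 of the 7 had a p under 0.05, and DESeq2 called 1 and limma 0; over all genes these shares were 17.6%, 8.24% and 7.85% (for DESeq2 over genes with an adjusted p). By edgeR 183 genes were called, 34 with the mouse as a block, and leaving out any 1 library but extravascular replicate 1 (518 calls) left between 8 and 79. Mycn had too few reads to be tested. Cells with a read of 8 markers of endothelial, immune, stromal or alveolar cells were more frequent in the intravascular gate, 24 to 34 of the 79 to 84 kept cells of a library against 5 to 9 of 69 to 82 in the extravascular one. The 4 alveolar markers summed to between 2.14 and 48.4 CPM in intravascular and between 3.16 and 7.45 CPM in extravascular libraries. Without these cells the Myc value was 0.51 log2.

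Mxd4 (chr5:34173883-34187720, minus strand), a repressor of the Mxd group, was the member nearest to a call. It was read at 8.16, 7.83, 5.97 and 10.3 CPM in intravascular and at 5.70, 3.22, 2.05 and 1.30 CPM in extravascular TCs. Each extravascular library lay below each intravascular one. The log2 fold change was -1.47 ± 0.37 (SE), for which edgeR gave an adjusted p of 0.0748. DESeq2 called it, as did edgeR without extravascular replicate 1, without the cell of most Mxd4 reads in each library, and without cells that hold a read of another cell type's marker, and over all alternatives the adjusted p ranged from 0.00285 to 0.176. The fold change was -2.22 log2 without those cells and -0.49 log2 under limma, which averages log values over cells. Mnt, the repressor found in most tissues, stood at 2.95 ± 1.98 CPM in intravascular and 1.34 ± 0.959 CPM in extravascular TCs (SD, n = 4), a log2 difference of -1.22 ± 0.60 (SE, adjusted p by edgeR 0.307).

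Latent TCs on day 3.5 were next set against extravascular TCs on day 1.5, a comparison that differs in day, mice and gate at once. Quality measures differed too, without overlap: median mitochondrial reads were 1.48% to 1.94% per latent and 2.23% to 3.16% per extravascular library, and median detected genes per cell 6554.5 to 6869.5 and 5721 to 6080.5. Their part in the differences was not tested. Here 2 of the 7 members other than Myc were called, both higher in latent TCs, where 8.57% of all 19249 genes were called in either direction. These were Mxd4 and Mxd3, and both were called under all 18 alternatives run. Of the 7 members DESeq2 called 2 and limma 4, against 16.5% and 27.1% of all genes. The 5 others were Mnt, Mxd1, Max, Mlx and Mxi1. The median log2 fold change of the 7 members was 0.28, and that of all genes tested 0.03.

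Mxd4 reached 19.5, 25.0, 21.3 and 27.01 CPM in the latent libraries, above all day 1.5 libraries and the culture (12.3 CPM). Its log2 fold change over extravascular TCs was 2.78 ± 0.39 (SE), from 3.07 ± 1.93 to 23.2 ± 3.42 CPM (SD, n = 4), with an adjusted p of 0.000619 by edgeR. The share of cells with an Mxd4 read was between 31.0% and 43.8% in latent libraries and between 4.35% and 16% in extravascular ones.

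Mxd3 (chr13:55325168-55329823, minus strand) was read at 13.1, 12.5, 26.2 and 6.96 CPM in extravascular and at 53.3, 37.3, 58.7 and 60.3 CPM in latent TCs. The groups did not overlap, at 1.71 ± 0.34 log2 (SE, adjusted p by edgeR 0.00665). Intravascular libraries (14.4 to 23.4 CPM) lay within the extravascular range. Its exons overlap those of Prelid1 on the other strand, and these libraries do not mark strand, so reads of the shared stretch cannot be told apart. Prelid1 itself differed by 0.08 ± 0.13 log2 (SE, adjusted p by edgeR 0.764).

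Myc stood at 50.5 ± 5.41 CPM in extravascular and 94.6 ± 13.2 CPM in latent TCs (SD, n = 4), a log2 difference of 0.77 ± 0.14 (SE). The extravascular libraries are those whose Myc level was known when the genes were chosen, so that this value too is a description. Mnt moved in the same direction without passing the test (1.45 ± 0.60 log2, adjusted p by edgeR 0.164), and limma on the mean log10 values called it and Mxd1 as well. Max, the shared partner, stood at 4.72 ± 0.583 CPM in latent and 5.49 ± 1.95 CPM in extravascular TCs, with a log2 difference of -0.35 (95% interval -1.03 to 0.33).

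Reads of other cell types were not even across these groups. The 8 immune markers summed to between 26.9 and 261 CPM in latent libraries and between 7.89 and 24.1 CPM in the other TC libraries, led by Lyz2 at 87.5 ± 108 CPM in latent and 0 in extravascular TCs. The 7 endothelial markers summed to between 23.96 and 51.8 CPM in latent and between 19.7 and 28.4 CPM in extravascular libraries, where 4 of the 7 stayed under 1 CPM. By edgeR 0 of these 7 were called, 4 had an unadjusted p under 0.05, and the median fitted log2 fold change was 3.98, a value that rests on markers at or near 0 in extravascular TCs. Of the 6 stromal markers 4 could be tested and 1 was called, Dcn, named after its value was seen, at 4.77 ± 6.87 CPM in latent and 0.0131 ± 0.0155 CPM in extravascular TCs (SD, n = 4), and it was called in 14 of 14 alternatives. After every cell with a read of the mixed set of 8 markers given for the day 1.5 gates had been left out, Mxd3 and Mxd4 were still called in latent versus extravascular TCs.

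**Figure D2:**
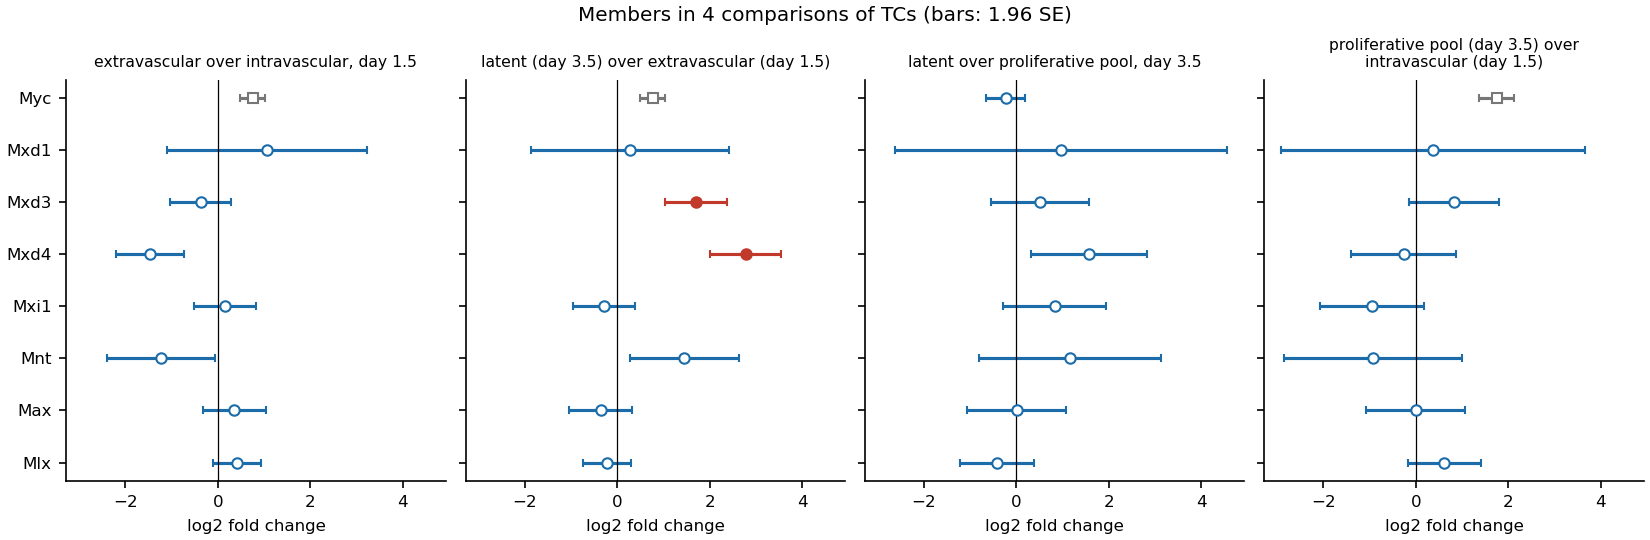
Log2 fold changes of 8 members in 4 comparisons of TCs, with bars for 95% intervals. Filled red points passed an adjusted p of 0.05 in edgeR's test, open circles did not, and grey squares mark Myc where it is a description only; in latent versus extravascular TCs Mxd4 and Mxd3 are filled.

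Latent and proliferative TCs of day 3.5 differ in how far they diluted the dye. Of the 8 members 0 were called by edgeR, and 0% of all genes were (0 of 19249, with 978 at an unadjusted p under 0.05). DESeq2 and limma also called 0 members, and 2.24% and 0% of all genes; 5.08% had an unadjusted p under 0.05. Mxd4 alone had an unadjusted p under 0.05. It stood at 7.74 CPM in the proliferative pool, below each latent library, at 1.57 ± 0.64 log2 (SE, adjusted p by edgeR 0.943). Myc differed by -0.23 log2, latent against proliferative, with a 95% interval of -0.65 to 0.18. By the annotation the pool has no replicate, and its spread was assumed to be that of the other groups.

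The proliferative pool was also set against intravascular TCs. Myc was 1.75 ± 0.19 log2 higher (SE), given as a description because the intravascular libraries were known to be low. Of the 7 other members 0 were called by edgeR, 0 by DESeq2 and 0 by limma, and 0 had an unadjusted p under 0.05, where 4.54%, 15.9%, 6.72% and 15.8% of all genes did so in this order. With only these 2 groups in the fit 2 genes in all were called. Mxd3 stood at 36.6 CPM in the pool and 17.9 ± 4.02 CPM in intravascular TCs (SD, n = 4), at 0.83 ± 0.49 log2 (SE).

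The remaining members varied less between TC groups. Mlx was read at 13.3 to 35.1 CPM in the sorted TC libraries and at 11.9 CPM in culture, and cells with an Mlx read made up 49.3% to 70.0% of each sorted library. Mxi1, another repressor, lay between 3.50 and 10.95 CPM and Max between 2.60 and 7.47 CPM. Mxd1 ranged from 0 to 6.84 CPM, and in day 1.5 libraries its cell of most reads held between 34.0% and 95.5% of its reads. Mycn, the paralog of Myc known from neural and embryonic tissue, had 0 reads in all 13 sorted TC libraries and was read in 0.271% of the culture cells. Exons of Mlx, Mxi1 and Mxd4 overlap a gene on the other strand as well (Psmc3ip, Gm10197 and Gm42846).

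**Figure D3:**
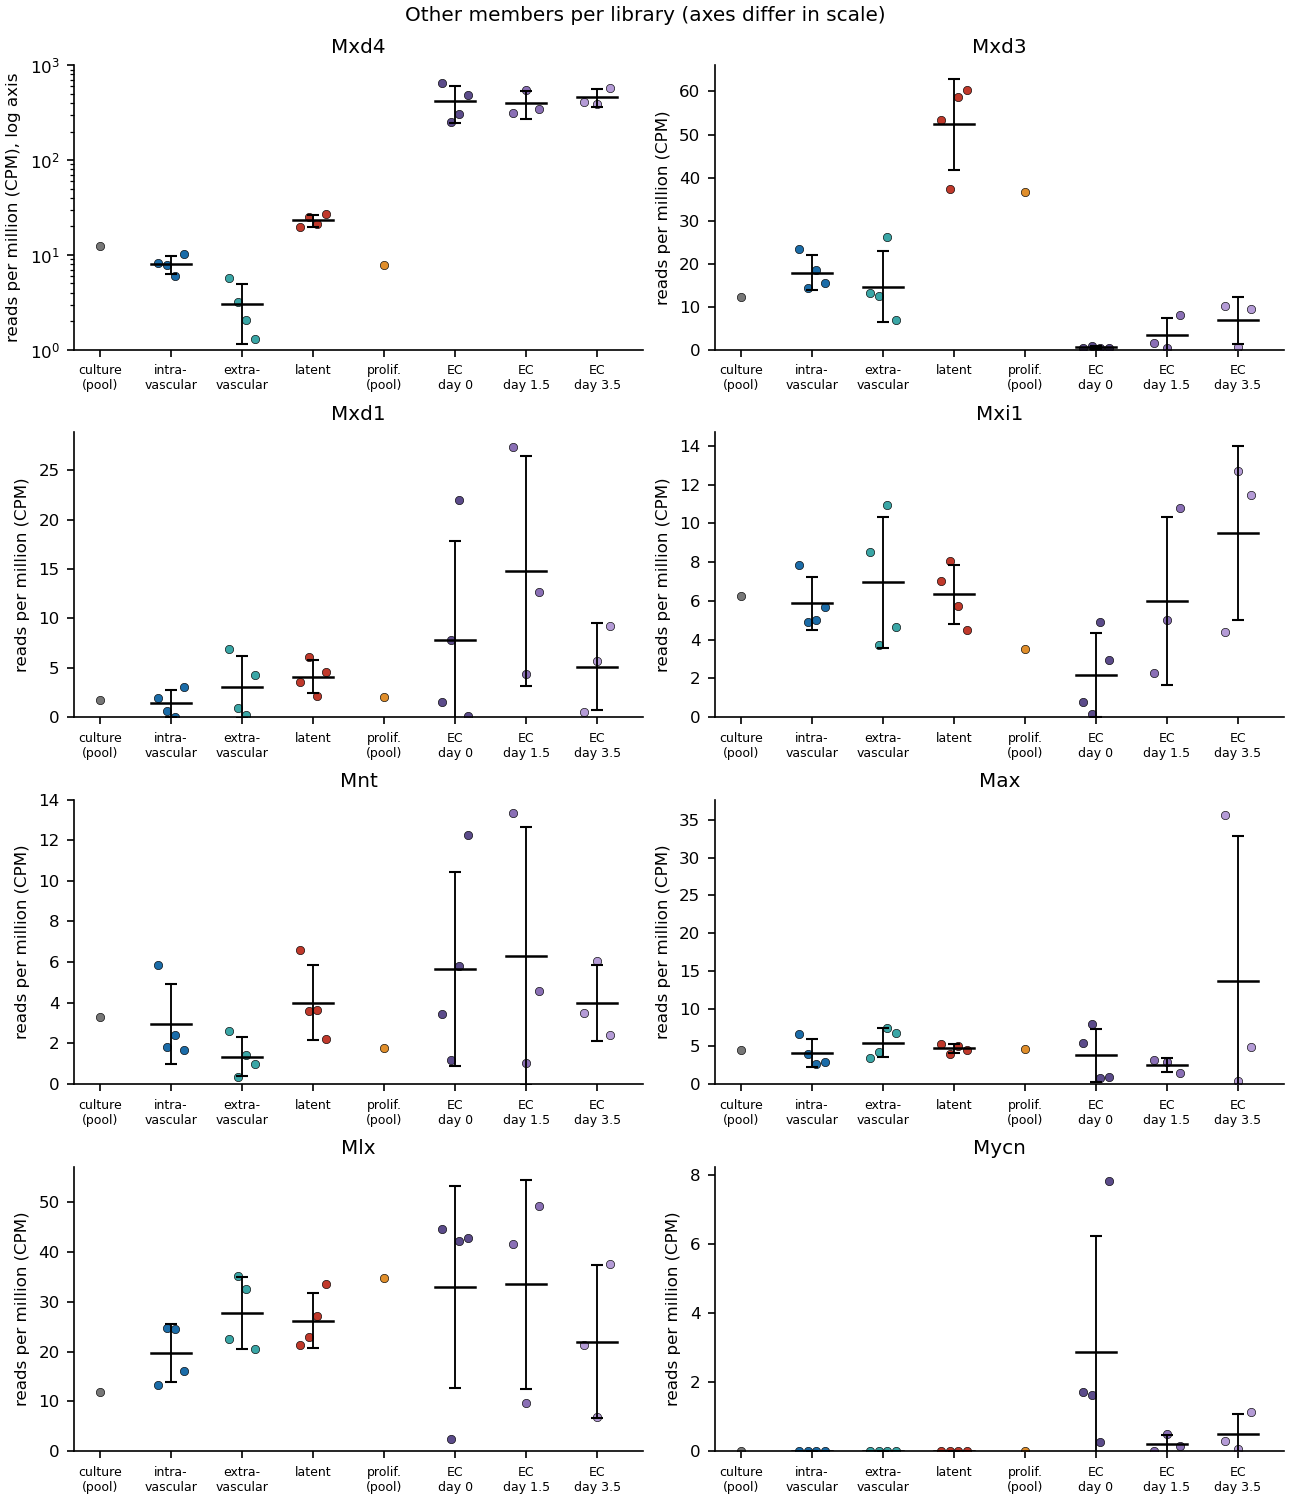
The 8 other members per library in CPM, with mean ± s.d. bars; axes differ in scale, and the Mxd4 axis is logarithmic. Latent libraries stood highest among TCs for Mxd4 and Mxd3, and Mxd4 in ECs lay between 254 and 644 CPM.

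Per kilobase of exon, levels can be set side by side between genes. In latent TCs Myc stood at 34.8, Mxd3 at 22.1, Mlx at 13.1, Mxd4 at 2.74 and Max at 1.31 CPM per kilobase, and Mxi1, Mnt and Mxd1 lay under 1. In intravascular TCs Myc (10.5 ± 1.54), Mlx (9.83 ± 2.90) and Mxd3 (7.57 ± 1.70) lay within reach of each other's spread (SD, n = 4). The level of Myc divided by the sum of the 5 repressors was 6.99 in culture and 2.31 in the proliferative pool. It was between 0.887 and 1.22 in intravascular, between 1.45 and 3.95 in extravascular and between 1.03 and 1.87 in latent TCs. Latent TCs thus held more Myc and more repressor RNA at a ratio that overlapped with both day 1.5 gates. The overlap with extravascular TCs rested on latent replicate 2 (1.87) and extravascular replicate 3 (1.45). The other latent ratios lay below every extravascular one. Mxd3 alone made up 22.1 of the mean latent repressor sum of 27.2 CPM per kilobase. Since Myc and Mxd3 were highest in latent cells of different cycle scores (given below), the ratio describes whole libraries and not single cells.

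ECs showed the opposite makeup. Mxd4 was read at 644, 254, 307 and 484 CPM on day 0, at 315, 552 and 343 CPM on day 1.5, and at 414, 393 and 570 CPM on day 3.5, in 38.9% to 77.7% of cells. The highest sorted TC library held 27.01 CPM. Per kilobase Mxd4 stood at 49.8 ± 20.9 on day 0 (SD, n = 4), ahead of Mlx at 16.5 ± 10.2, with Mnt, Mxd1 and Max at 1.23, 1.11 and 1.07. Myc over the summed repressors was at most 0.0408 in any EC library. TCs and ECs were not fitted together.

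The 3 days of ECs were compared to ask whether arriving TCs alter the endothelium. By the annotation, day 0 replicates 1 and 2 shared the sort day of the day 1.5 mice, and replicates 3 and 4 that of the day 3.5 mice. Day 3.5 and day 1.5 can thus not be told apart from their sort days, and the day 0 group mixes both. By edgeR 0 of the 8 members other than Myc were called in any pair of days (day 1.5 against 0, day 3.5 against 1.5 and day 3.5 against 0), where 0% of 17585 genes were called in each. Before adjustment 0, 0 and 1 members had a p under 0.05, DESeq2 called 0, 0 and 1, and limma 0 in each. Over all genes 8.09%, 4.54% and 8.76% had such a p, DESeq2 called 2.01%, 0.762% and 2.91%, and limma 0.917%, 0% and 1.49%. Mxd4 differed by -0.12 log2 on day 1.5 versus day 0 (95% interval -0.78 to 0.54) and by 0.05 log2 on day 3.5 versus day 0 (95% interval -0.61 to 0.71). The gene called by DESeq2 was Mxd3, read at 0.431, 0.955, 0.367 and 0.377 CPM on day 0 and at 10.2, 0.639 and 9.59 CPM on day 3.5. Replicate 2 of day 3.5 lay within the day 0 range, and the difference was 3.61 ± 1.22 log2 (SE, adjusted p by edgeR 0.473). Over the alternatives it ranged from 3.14 to 4.17 log2, apart from 0.17 under limma. In the day 3.5 libraries 1 cell held 78.2%, 56.6% and 38.4% of the Mxd3 reads. Cells with an Mxd3 read made up 4.05% to 7.78% of the day 0 and 6.57% to 8.64% of the day 3.5 libraries. Mycn stood at 2.86 ± 3.38 CPM on day 0 (n = 4), 0.216 ± 0.259 CPM on day 1.5 and 0.498 ± 0.572 CPM on day 3.5 (SD, n = 3 each). The highest day 0 library, replicate 4 at 7.84 CPM, had 96.7% of its Mycn reads in 1 cell. The wide spread between mice limits what could be detected in ECs.

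To see where in the cycle the members were read, each TC was split by the sum of its S-phase and G2M scores (43 and 54 genes) into cycling (above 0) and noncycling. Cycling cells made up 73.8% to 80.0% of intravascular, 70.7% to 80.5% of extravascular and 56.5% to 71.4% of latent libraries, 78.5% of the proliferative pool and 55.8% of the culture. The latent gate thus held many cells that score as cycling. By the same cut the culture had the lowest share, while the day 1.5 gates, which the study calls nonproliferative, reached 70.7% to 80.5%. A score above 0 can therefore not be read as division, and cycling and noncycling only name the sides of the cut. The study counted dye-retaining cells with a score sum under -1 as bona fide latent, a split used here as an alternative. The split is a cut in a continuous score and is given without a test.

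Within latent TCs, Myc was read at 41.0, 68.1, 79.3 and 63.6 CPM in cycling cells and at 180, 168, 90.4 and 177 CPM in noncycling cells of the same mice. Noncycling cells were higher in 4 of 4 mice, at a mean of 154 ± 42.6 against 63.0 ± 16.1 CPM (SD). Single cells weighed on this: without the cell of most Myc reads in each library the means were 109 and 57.2 CPM, still higher in noncycling cells in 4 of 4 mice. The proliferative pool held 206 CPM in noncycling and 84.5 CPM in cycling cells, but without 1 cell the first value was 88.2 CPM. In the day 1.5 gates no order was shared by all mice.

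Mxd3 had the reverse pattern. It stood at 76.4 ± 10.5 CPM in cycling and 2.71 ± 3.27 CPM in noncycling latent cells (SD, n = 4), and was higher in cycling cells in 4 of 4 mice of each of the latent, extravascular and intravascular gates. Mxd4 was read at 12.4, 3.68, 16.3 and 25.9 CPM in cycling and at 34.9, 55.9, 36.5 and 29.2 CPM in noncycling latent cells, again higher in noncycling cells in each mouse. Mnt stood at 2.08 ± 0.722 CPM in cycling and 8.04 ± 4.85 CPM in noncycling latent cells. Mnt was higher in noncycling cells in each latent library too, so that these 3 repressors were not read at their highest in the same cells. Noncycling latent cells had fewer detected genes, with a median between 5636.5 and 6663 per library against 6754.5 to 7173 in cycling cells; the part of this difference in the levels was not tested.

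**Figure D4:**
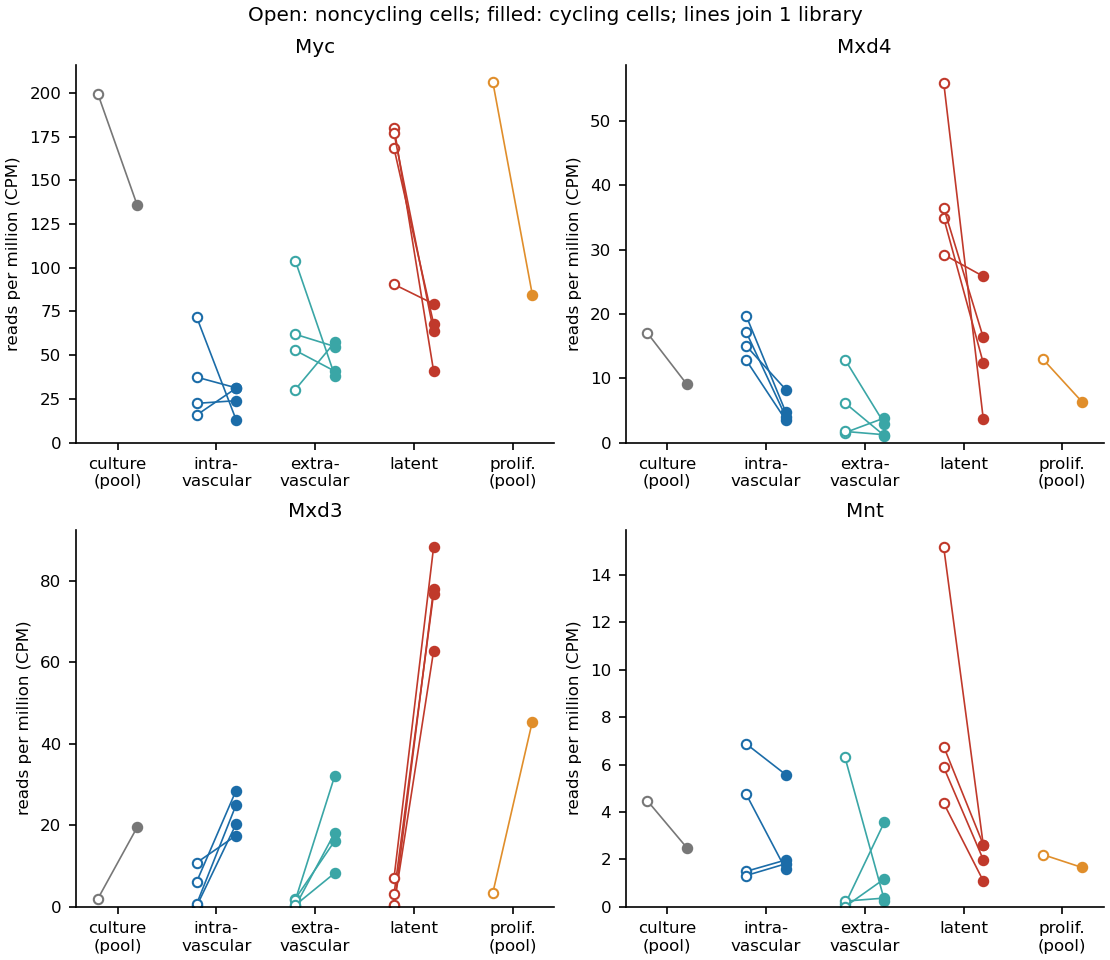
Levels in CPM of Myc, Mxd4, Mxd3 and Mnt in noncycling (open) and cycling (filled) TCs, with lines joining cells of 1 library. In latent libraries the lines of Myc, Mxd4 and Mnt fall and those of Mxd3 rise from noncycling to cycling cells.

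Other genes of the pathway were read from lists of textbook members. Of 30 genes that Myc is known to activate, 8 were lower and 0 higher in latent than in extravascular TCs, or 26.7% called where 8.57% of all genes were (957 of those 1650 genes lower). Their median log2 fold change was -0.26, against 0.03 for all genes. Among the 8 were Npm1, a nucleolar chaperone of ribosome assembly (2134 ± 56.6 to 1489 ± 24.1 CPM, -0.66 ± 0.05 log2), and Hspd1, a mitochondrial chaperonin (559 ± 52.1 to 281 ± 36.0 CPM, -1.14 ± 0.10 log2). The 6 others, named after their values were seen, were Cdc25a, Dkc1, Ncl, Nop58, Odc1 and Ran. Of 17 alternatives, Npm1, Hspd1, Cdc25a, Ncl and Nop58 were called in 17, Odc1 in 15, Dkc1 in 10 and Ran in 9, all with the same direction. Dkc1 and Ran were lost when 1 of several libraries was left out, among them extravascular replicates 2, 3 and 4. Odc1, Dkc1 and Ran were also lost without the cells that hold a read of other cell types' markers. Of 5 genes that Myc is known to repress, 2 were higher, the growth arrest gene Gadd45a (2.06 ± 0.32 log2) and Ndrg1 (1.81 ± 0.38 log2). Of the 43 S-phase genes 9 were lower and 0 higher (20.9% called, median -0.30 log2). Of these 9, named after their values were seen, Cdc6, Mcm5 and Mcm4 were called in 5, 8 and 9 of 17 alternatives and were lost without any of latent replicates 1, 2 and 3 or extravascular replicates 2 and 3. Of the 54 G2M genes 4 were higher and 2 lower, and their 11.1% called lay near the 8.57% of all genes, with a median of -0.02 log2. Of these 6, Lbr, also named after its value was seen, was called in 11 of 17 alternatives and was lost without extravascular replicate 4 or any of latent replicates 1, 2 and 3; the others were called in 15 to 17.

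**Figure D5:**
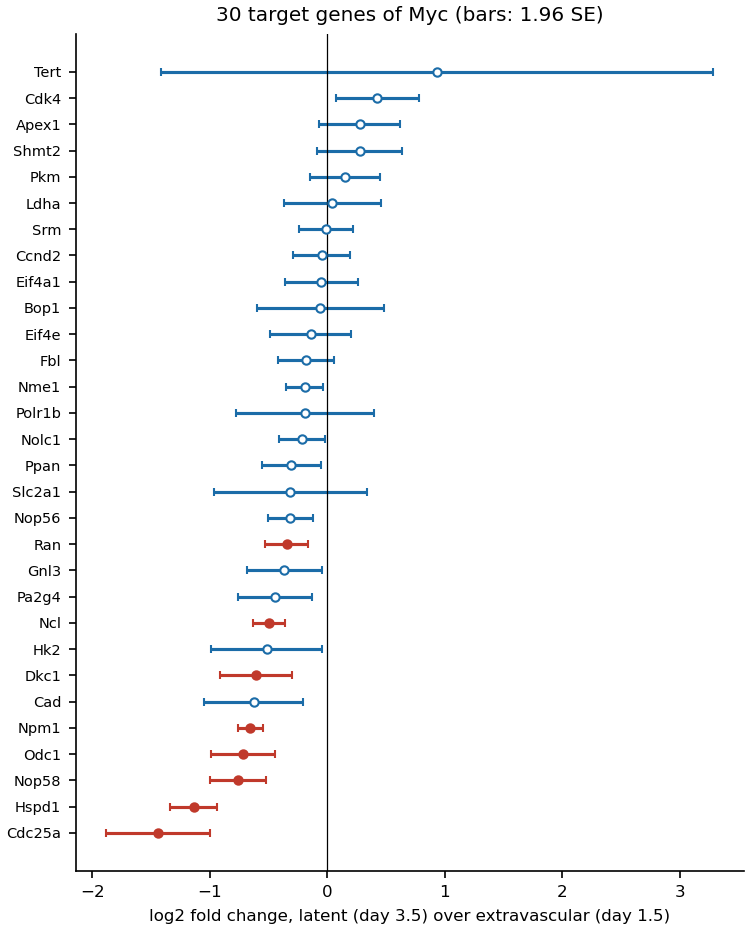
Log2 fold changes of 30 genes that Myc is known to activate, latent over extravascular TCs, with bars for 95% intervals. The 8 filled points, among them Npm1 and Hspd1, passed an adjusted p of 0.05 in edgeR's test and all lie below 0.

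Among partners of the network, Txnip, a glucose-responsive target of Mlx dimers, rose from 3.66 ± 1.49 to 26.7 ± 2.48 CPM in latent versus extravascular TCs (2.73 ± 0.36 log2, adjusted p by edgeR 0.000441), 1 of the 2 Mlx targets listed. Of the corepressors, Sin3b rose by 0.61 ± 0.07 log2 and Hdac2 fell by 0.71 on the log2 scale, 2 of 4 listed; limma did not call Hdac2 (adjusted p 0.407). Of the Myc cofactors and of the genes for Myc turnover 0 of 8 were called in each by edgeR, and before adjustment 3 and 0 had a p under 0.05, while DESeq2 called 2 and 0 and limma 5 and 2. These counts stand against 8.57% of all genes called by edgeR, 23.4% with such a p, and 16.5% and 27.1% called by DESeq2 and limma. Mlxip, the partner of Mlx, stood at 36.2 ± 5.48 CPM in latent and 23.4 ± 3.24 CPM in extravascular TCs without passing the test (0.49 ± 0.28 log2, adjusted p by edgeR 0.314). Mga differed by -0.04 ± 0.34 log2, Mycl was read at 0.361 CPM at most in any TC library, and Mlxipl was too low to be tested.

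In extravascular versus intravascular TCs, where 0.951% of all genes were called, 1 of the 30 Myc targets was higher, Odc1, which starts polyamine synthesis (182 ± 25.2 to 303 ± 51.6 CPM, 0.66 ± 0.14 log2), and 1 lower, Nme1 (-0.37 ± 0.08 log2). Sin3b was also lower there, at -0.36 ± 0.07 log2. These 3 calls rest on the full set of libraries: Odc1 and Nme1 were called in 5 and Sin3b in 7 of 18 alternatives, all 3 were lost with the mouse as a block and without any 1 library but extravascular replicate 1, and their direction held in 18 of 18. In the proliferative pool versus intravascular TCs, with 4.54% of all genes called, 4 targets were higher, among them Pkm (1.26 ± 0.22 log2) and Srm (0.73 ± 0.18 log2), and 3 lower, among them Ncl (-0.80 ± 0.12 log2) and Nme1 (-0.69 ± 0.13 log2). The median of all genes was -0.16 log2 in that comparison. The pool is 1 library, so that calls against it rest on the spread of the other groups. The cofactors Ruvbl1 and Ruvbl2, ATPases of chromatin remodeling complexes, were 1.14 ± 0.25 and 1.08 ± 0.27 log2 higher in the pool. With only these 2 groups fitted none of the targets and cofactors named here was called, and Ruvbl1, Ruvbl2 and Srm were also lost without intravascular replicate 4, Ruvbl2 and Srm without replicate 1 and Srm without replicate 3. Ruvbl1 and Ruvbl2 were lost without the cells that hold a read of other cell types' markers, and Ruvbl2 and Srm under limma. In latent versus proliferative TCs 0 of the 30 targets were called by edgeR, while 7 had a p under 0.05 before adjustment, and DESeq2 called 2 and limma 0, against 5.08%, 2.24% and 0% of all genes.

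Over the 13 sorted TC libraries, the genes whose log2(CPM + 1) followed that of Myc most closely, among 6837 genes of at least 10 CPM, were Puf60 (Pearson's r of 0.963), Got1 (0.956), Pnpla2 (0.953), Wbp2 (0.948) and Nceh1 (0.947). The libraries share gate, day and lane, so that r describes the order of the gates. Puf60, for instance, stood at 50.2 CPM in intravascular, 70.4 in extravascular, 110 in latent and 127 in proliferative TCs.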

How the data were processed

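Reads came from single sorted cells in plates (modified SMART-Seq2, no molecular identifiers, no strand). The authors deposited estimated counts per gene and cell, made with Salmon 0.7.2 on GRCm38 per the labels, and filtered tables on a log10 scale after division by housekeeping genes; the annotation release is not given in the sources used here. Kept cells were traced to their raw columns (2479 of 2479 ECs, 1566 of 1566 TCs, tolerance 0.01, set after a stricter one had matched fewer), and its estimated counts were summed per mouse and gate and rounded. The study states a limit of 5% mitochondrial content, but on reads 1 to 20 kept cells per TC library lay above it, and the values given here include them; leaving them out was an alternative. A table of 2293 capillary ECs, all contained in the EC table, was not used.

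The TC fit was planned with 16 libraries and made with 13, since the annotation names 1 mouse for the 4 labelled proliferative replicates. Fits used edgeR 4.0.16 in R 4.3.3 (TMM, filterByExpr, quasi-likelihood test, Benjamini-Hochberg over all genes, adjusted p of 0.05), with DESeq2 1.42.0 and limma 3.58.1 (mean log10 values) as alternatives. The fits were tested on simulated data, where the EC fit recovered a much smaller share of the changes set than the TC fit did. Mouse numbers pair these gates by animal, with correlations of deviations of 0.0421, -0.00087, 0.0173 and -0.0089. Gene lengths and positions are from GENCODE M21. Named list genes are the 2 of smallest adjusted p in each direction. Myc in latent versus extravascular TCs and in ECs was set apart from the counts after its values were seen. Members and lists were chosen with earlier results of these data known.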

Additional observations from a re-analysis of the deposited data

Results flagged for a closer look

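In 2 of 30 groups of 4 libraries tested, 1 library stood apart from its group (gap over range above Dixon's critical value for 4 samples), and chance flags about 1 in 20 groups. Both concern replicate 2 of the day 0 ECs. Mxd3 was highest there at 0.955 CPM, against 0.367 to 0.431 CPM. Mlx was lowest at 2.54 CPM, against 42.1 to 44.5 CPM.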

How the results depend on the processing

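Of 841 values of single members under alternatives, with Myc left out where it is a description, 834 kept direction and side of the threshold where the main or the alternative value was called, and 7 became called. Uncalled values changed sign 27 times in TCs and 37 times in ECs, and DESeq2 gave no adjusted p for 5. The count of other members called in extravascular versus intravascular TCs became 1 (Mxd4) under DESeq2, without extravascular replicate 1, without the cell of most reads and without cells holding other markers. It became 4 (Mnt and Mxd1 added) in latent versus extravascular TCs under limma, and 1 (Mxd3) in ECs on day 3.5 versus day 0 under DESeq2. Myc in extravascular versus intravascular TCs was 0.46 log2 under limma, 1.04 without the cell of most reads and 0.51 without cells holding other markers, and 0.68 to 0.82 with 1 library left out. The share difference was 14.9 points at 10 reads. For cycling over noncycling cells, the split at a score of -1 gave a Myc log2 difference of -1.84 in place of -1.29 in latent TCs, and of -3.50 in place of -1.29 in the proliferative pool, where it left 9 noncycling cells (952 CPM of Myc, and 138 CPM without the cell of most Myc reads).

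Over all genes, extravascular versus intravascular TCs gave 1401 calls under DESeq2, 1454 under limma, 63 with only these 2 groups fitted, 34 with the replicate block, and 8 to 518 with 1 library left out. Without cells holding other markers, calls fell from 183 to 27 there and from 1650 to 1028 in latent versus extravascular TCs. Latent versus extravascular TCs gave 2881 and 5027 under DESeq2 and limma and 1189 to 1465 with 1 library left out, and the proliferative pool versus intravascular TCs 1938 under DESeq2 and 557 to 891. Latent versus proliferative TCs gave 111 under DESeq2. In ECs DESeq2 called 358, 133 and 508 genes and limma 161, 0 and 262 on day 1.5 versus day 0, day 3.5 versus day 1.5 and day 3.5 versus day 0. The replicate block gave 0.76 for Myc in extravascular versus intravascular TCs and changed no call of the other members. No paired analysis was possible for the other comparisons because their annotated mice differ or, for latent versus proliferative TCs, because the annotation names 1 mouse for the pool. Fits by sort day, without the proliferative pool and without cells holding other markers were chosen after seeing the data. The causes of these differences were not tested.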
